A study of Mus musculus with 6 samples.

Results

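The genes described here are 7 interferon-gamma-induced GTPases, Iigp1, Igtp, Irgm1, Irgm2, Gbp2, Gbp3 and Gbp7, with the interferon-gamma ligand Ifng and its receptor chains Ifngr1 and Ifngr2. They were taken by symbol, with earlier results of these data known, and all 10 were among the 24421 gene symbols of the count tables. Transcripts were counted with 3' end tags (Lexogen QuantSeq, in which a transcript gives tags from its polyadenylated end) in 3 libraries labelled homozygous for a knockout of Lphn2 (KO) and 3 labelled wild type (WT). Lphn2, now named Adgrl2, encodes the adhesion receptor latrophilin-2. Both groups were of the C57BL/6N strain and labelled as whole embryo at embryonic day 9.5, and no treatment is given. The labels do not state the deleted part of the gene, the sex, the litter, or whether a library holds 1 embryo or several. Sample codes in the labels begin with 32 for WT replicate 1 and with 45 for the other 5 libraries, and their meaning is not stated. Without WT replicate 1 the median log2 fold change (KO over WT) of the GTPases was 1.19, against 1.14 with it.

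Interferon-gamma is secreted mainly by natural killer cells and T cells. It binds a receptor made of the Ifngr1 and Ifngr2 chains, and the kinases Jak1 and Jak2 on it start a signal that acts through GAS elements of target promoters. Interferon-induced factors such as Irf1 bind a second element, the ISRE. Among the strongest targets in mouse cells are 2 GTPase families, the immunity-related GTPases (IRG) and the guanylate-binding proteins (GBP), which gather on vacuoles that hold intracellular parasites and bacteria. In the pregnant mouse, uterine natural killer cells of the maternal lining, the decidua, are a known source of interferon-gamma.

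The GTPase genes lie in family clusters, and the promoters at hand are shown because they were searched for the elements named above. In GENCODE M21 on mm10 all 10 genes are protein-coding. Gbp7 (chromosome 3, 142530342 to 142550149), Gbp3 (142560026 to 142573209) and Gbp2 (142620602 to 142638008) stand side by side on the plus strand. Irgm2 (chromosome 11, 58199618 to 58222782) overlaps Igtp (58199556 to 58207591) on the same strand. The annotated 3' end of Igtp lies in the shared span, so a tag from it could be given to either gene. That of Irgm2 lies outside the shared span. Irgm1 lies on the same chromosome at 48861968 to 48871683 on the minus strand. Ifng and Ifngr1 lie on chromosome 10 and Ifngr2 on chromosome 16. On the same strand, the annotated gene Gm49751 overlaps Ifng and Gm43802 overlaps Gbp7, so tags there could also be shared. RefSeq windows of 300 bases (GRCm38.p6, from 250 before to 50 after the start) were matched for 9 of the 10 genes, of which Gbp3 had 2. Iigp1 was not matched. An ISRE core was searched as GAAANNGAAA and a GAS element as TTCNNNGAA, on both strands.

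The stretches below are the 110 bases before the RefSeq start, 5′ to 3′ in the direction of the gene, with the searched elements in capitals. RefSeq starts can differ from the GENCODE positions above. The stretches of Irgm1 and Irgm2 lie within the GENCODE span of the gene, and those of Gbp2 and Gbp3 reach into it. The first 6 belong to GTPase genes and the last to a receptor chain.
Igtp, chr11:58199446-58199555, plus strand: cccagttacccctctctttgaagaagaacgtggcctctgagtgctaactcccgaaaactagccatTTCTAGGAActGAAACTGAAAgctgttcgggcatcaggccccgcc
Irgm2, chr11:58214867-58214976, plus strand: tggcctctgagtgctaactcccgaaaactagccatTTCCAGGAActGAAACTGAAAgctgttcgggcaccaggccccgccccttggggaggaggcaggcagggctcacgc
Irgm1, chr11:48871421-48871530, minus strand: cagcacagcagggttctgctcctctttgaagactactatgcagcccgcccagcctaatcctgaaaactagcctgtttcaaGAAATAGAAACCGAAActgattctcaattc
Gbp2, chr3:142620553-142620662, plus strand: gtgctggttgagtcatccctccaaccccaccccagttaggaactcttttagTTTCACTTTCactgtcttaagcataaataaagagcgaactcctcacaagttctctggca
Gbp3, chr3:142559934-142560043, plus strand: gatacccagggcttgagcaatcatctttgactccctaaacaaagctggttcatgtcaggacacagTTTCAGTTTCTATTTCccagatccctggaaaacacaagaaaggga
Gbp7, chr3:142530226-142530335, plus strand: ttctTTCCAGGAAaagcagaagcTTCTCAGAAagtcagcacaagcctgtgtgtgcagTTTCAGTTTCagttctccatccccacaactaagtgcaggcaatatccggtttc
Ifngr1, chr10:19591839-19591948, plus strand: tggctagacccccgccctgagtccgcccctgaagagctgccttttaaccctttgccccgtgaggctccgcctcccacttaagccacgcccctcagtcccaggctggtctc

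Each of the 6 GTPase genes with a window had at least 1 ISRE core there, against 3.44% of 32851 windows of the same length. Irgm1 and Gbp3 each had 2 overlapping cores, and in Gbp2, Gbp3 and Gbp7 the core lay on the opposite strand, read here as TTTCNNTTTC. A GAS element stood in 3 of the 6, Igtp, Irgm2 and Gbp7, against 8.30% of windows, and Gbp7 had 2. In Igtp and Irgm2 the GAS element preceded the ISRE core by the same gap of 2 bases, and their windows were identical in 73.5% of aligned columns. The windows of Ifngr1 and Ifngr2 held neither element, and that of Ifng held a GAS element 249 bases before its start. These are matches of letters and not sites of binding.

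Of the 10 genes, 9 had enough counts to be tested (a minimum count of 10 in edgeR's filterByExpr), and Ifng had none. Levels are counts scaled by sequencing depth (CPM, with TMM factors), and fold changes are log2 of KO over WT. All 9 had a positive fold change, as did 46.6% of all genes tested, and in 7 of them every KO library lay above every WT library. None passed the threshold of adjusted p 0.05 over all 13848 genes tested (edgeR quasi-likelihood test with Benjamini-Hochberg adjustment), at which 0% of genes were called higher and 0.0505% lower. The count with a raw p below 0.05 was 7 of 9, against 8.68% of all genes in that direction, and non-overlap with KO above WT was seen in 12.1% of all genes. The median fold change of the 7 GTPases was 1.14, against -0.04 over all genes. DESeq2 called 5 of the 9 higher, against 3.49% of all genes. The members, and the lists below, were chosen with earlier results of these data known. Their shares beside those of all genes are therefore descriptive and no separate test.

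**Figure D1:**
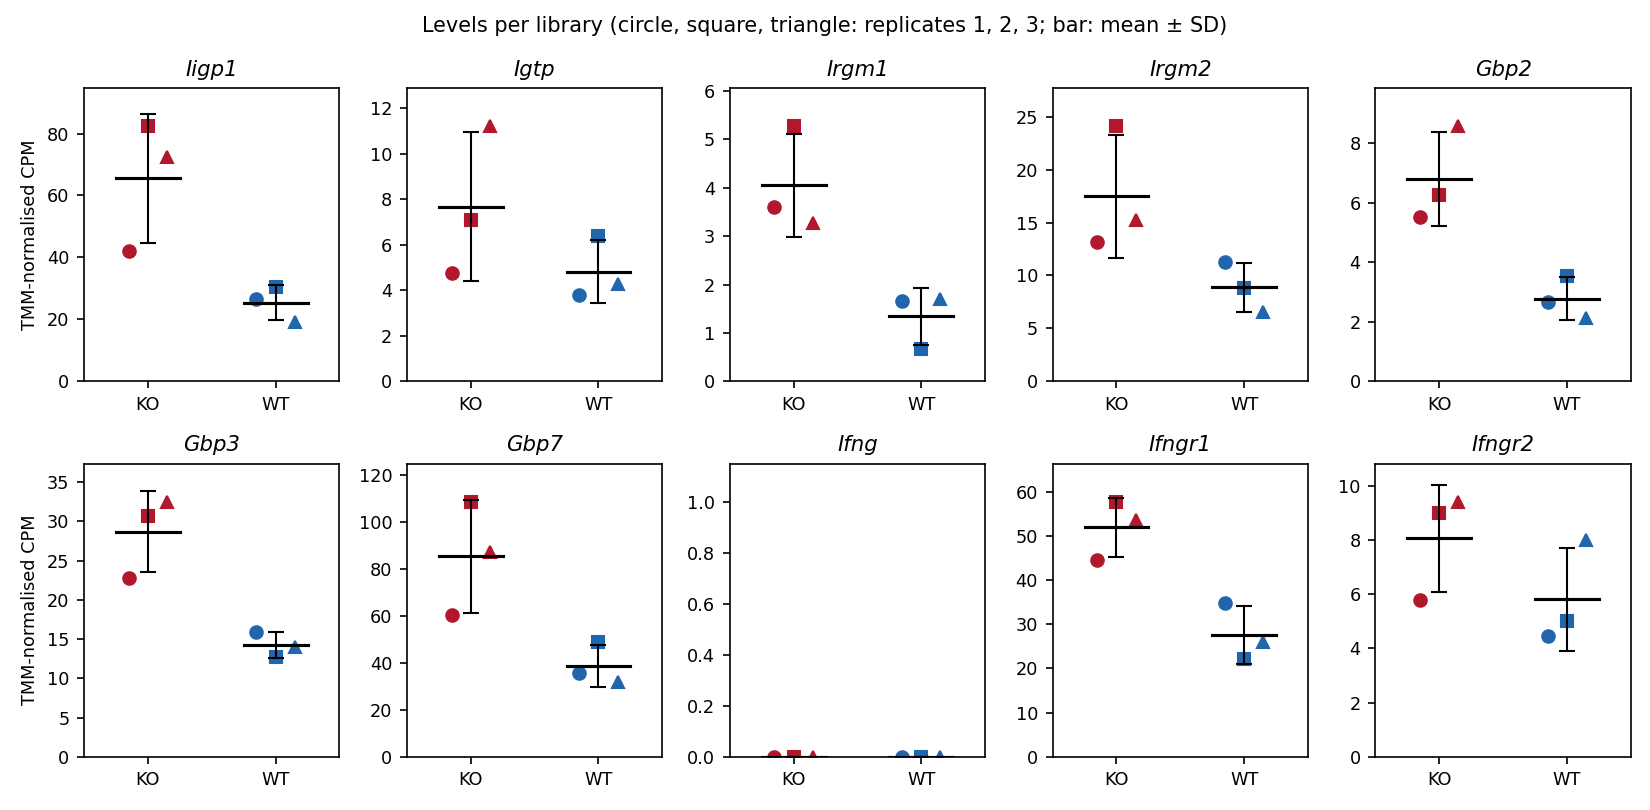
TMM-normalised CPM of the 10 genes in each library, with KO left of WT in every panel. Points are libraries (circle, square and triangle for replicates 1, 2 and 3) and bars show the mean ± SD of 3. KO points lie above all WT points for Iigp1, Irgm1, Irgm2, Gbp2, Gbp3, Gbp7 and Ifngr1, overlap them for Igtp and Ifngr2, and are at 0 for Ifng.

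Iigp1 encodes Irga6, an IRG protein with the usual GTPase motif that coats parasite vacuoles; the gene lies on chromosome 18. It was read at 42.2, 82.3 and 72.3 CPM in KO replicates 1, 2 and 3, against 26.5, 30.5 and 19.2 CPM in WT replicates 1, 2 and 3. The groups did not overlap, and KO replicate 1 was the KO library nearest to WT. It averaged 65.6 ± 20.9 CPM in KO and 25.4 ± 5.70 CPM in WT (SD, n = 3 each), with a log2 fold change of 1.37 ± 0.30 (SE). The 95% interval ran from 0.67 to 2.07, and the edgeR adjusted p was 0.166. DESeq2 gave an adjusted p of 0.00233, and edgeR without KO replicate 1 one of 0.0275. Over the alternatives with at least 2 libraries a group, the adjusted p spanned 0.00233 to 0.574, with the upper end reached without KO replicate 2.

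Igtp, Irgm1 and Irgm2 encode the IRG proteins of the other class, with a changed nucleotide-binding motif, which sit on the cell's own membranes and hold the effector IRG proteins in check. Irgm1 was read at 3.61, 5.27 and 3.28 CPM in the KO libraries, against 1.67, 0.670 and 1.70 CPM in the WT libraries. This was the highest of the 9 fold changes, at 1.57 ± 0.50 (SE), and it rests on 46 to 92 counts per KO library and 11 to 65 per WT library. The interval was wide, from 0.40 to 2.75, and the edgeR adjusted p was 0.223.

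Irgm2 stood at 13.1, 24.1 and 15.3 CPM in the KO libraries, against 11.3, 8.77 and 6.56 CPM in the WT libraries. The lowest KO value was 1.17 times the highest WT value, a narrow gap. Its log2 fold change was 0.98 ± 0.33 (SE, interval 0.21 to 1.75, edgeR adjusted p = 0.239). Igtp, which encodes Irgm3, was the exception among the GTPases. It stood at 4.75, 7.07 and 11.2 CPM in the KO libraries, against 3.80, 6.40 and 4.26 CPM in the WT libraries, so that KO replicate 1 lay inside the WT range. The fold change was 0.67 ± 0.40 (SE), the interval of -0.28 to 1.62 held 0, and the edgeR adjusted p was 0.467. With KO replicate 1 alone against WT its fold change was 0.00097. The 3' end of Igtp lies in the span shared with Irgm2, so its level may miss tags given to Irgm2. Irgm1, Irgm2 and Igtp passed under none of the alternatives.

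The GBP members are larger GTPases that can assemble into coats on bacteria and vacuoles. Gbp2, which carries a lipid anchor, was read at 5.53, 6.27 and 8.55 CPM in the KO libraries, against 2.68, 3.53 and 2.12 CPM in the WT libraries. The fold change was 1.29 ± 0.35 (SE, interval 0.46 to 2.12), with an edgeR adjusted p of 0.189. DESeq2 gave an adjusted p of 0.0481, the lowest of a span that ended at 0.574.

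Gbp3 had the tightest groups of the 7 GTPases. It stood at 22.8, 30.7 and 32.5 CPM in the KO libraries, against 15.9, 12.7 and 14.0 CPM in the WT libraries, averaging 28.7 ± 5.15 CPM in KO and 14.2 ± 1.64 CPM in WT (SD, n = 3 each). Its coefficients of variation were 18.0% in KO and 11.5% in WT. The fold change was 1.01 ± 0.22 (SE, interval 0.50 to 1.52, edgeR adjusted p = 0.166), and by p it ranked 169 among all genes tested. The adjusted p was 0.00608 with DESeq2 and 0.0354 with edgeR when KO replicate 1 was left out, and it spanned 0.00608 to 0.574.

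Gbp7 stood at 60.2, 108 and 86.96 CPM in the KO libraries, against 35.4, 48.9 and 31.7 CPM in the WT libraries. Every KO value lay above every WT value, with a fold change of 1.14 ± 0.27 (SE, interval 0.50 to 1.78, edgeR adjusted p = 0.172). DESeq2 (0.00785) and edgeR without KO replicate 1 (0.0400) put its adjusted p past the threshold, in a span of 0.00785 to 0.574. All 6 counts of Gbp7, and all 6 of Iigp1, were multiples of 2, so each may stand for fewer tags than it shows. With such common divisors removed the fold changes were 1.14 and 1.37.

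**Figure D2:**
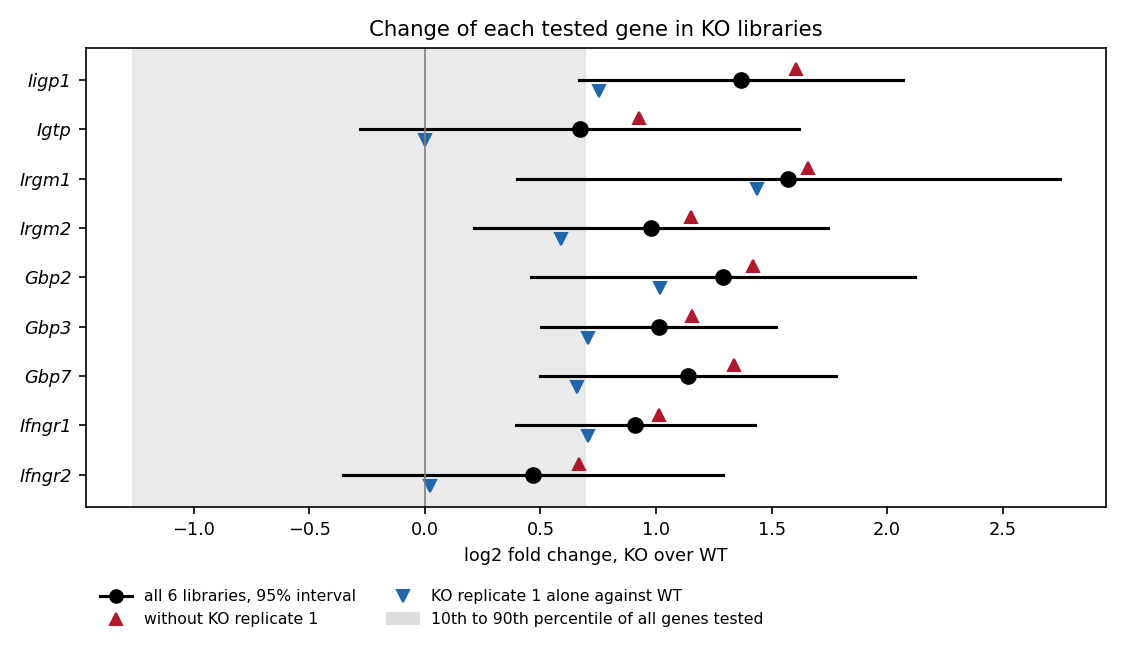
Log2 fold change, KO over WT, of the 9 tested genes. Black points and lines are the fit to all 6 libraries with its 95% interval, red triangles the fit without KO replicate 1, blue triangles KO replicate 1 alone against WT, and the grey band the 10th to 90th percentile of all genes tested (-1.26 to 0.69). The intervals of Igtp and Ifngr2 hold 0, and each gene lies lower with KO replicate 1 alone than without it.

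Ifng itself had 0 counts in every library. A count of 0 allows up to 3 counts, which is 0.118, 0.200 and 0.214 CPM in KO replicates 1, 2 and 3, against 0.109, 0.183 and 0.0784 CPM in WT replicates 1, 2 and 3, for counting error only. The ligand was thus not detected in either group, and no fold change can be given. Tags in the span that Ifng shares with Gm49751 may have been given to that gene or left out, which was not tested.

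Ifngr1 encodes the ligand-binding chain of the receptor. It was read at 44.4, 57.7 and 53.5 CPM in the KO libraries, against 34.8, 22.1 and 25.9 CPM in the WT libraries. The groups did not overlap, with a fold change of 0.91 ± 0.22 (SE, interval 0.39 to 1.43, edgeR adjusted p = 0.173). Only DESeq2, of the tools and settings tried, put it past the threshold (adjusted p = 0.0155, in a span up to 0.574). Ifngr2, the signalling chain, stood at 5.80, 9.00 and 9.41 CPM in the KO libraries, against 4.46, 5.00 and 8.00 CPM in the WT libraries. WT replicate 3 lay among the KO values, and the fold change of 0.47 ± 0.35 (SE) had an interval of -0.35 to 1.29 and an edgeR adjusted p of 0.555.

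Across libraries the order differed from gene to gene. KO replicates 2 and 3 held the highest value of all 9 tested genes, in 5 and 4 of them, and WT libraries held every lowest value. KO replicate 1 was the lowest KO library for 8 of the 9, all but Irgm1. The median of the 7 GTPases lay at 0.69, 1.47 and 1.24 from the WT mean (log2) in KO replicates 1, 2 and 3, against 0.09, 0.29 and -0.26 in WT replicates 1, 2 and 3. Over the 6 libraries, all 21 pairs of GTPases had a positive Pearson r of log2 CPM, from 0.29 for Igtp with Irgm1 to 0.99 for Iigp1 with Gbp7, with a median of 0.82. These values describe 6 libraries that also differ by group.

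The other members of the IRG, GBP and related GVIN families were taken from a list of 26 symbols, of which 21 were in the tables and 13 could be tested. All 13 had positive fold changes, with a median of 0.98. The 13 were 12 sets of counts, since Gvin1, a very large GTPase, and Gm4070 had the same counts and cannot be told apart. None passed over all genes. Of the 12 sets, 4 had every KO library above every WT library, against 12.1% of all genes, and 2 had a raw p below 0.05 with KO higher, against 8.68%. Gvin1 stood at 49.7, 73.1 and 55.6 CPM in the KO libraries, against 34.7, 40.0 and 15.8 CPM in the WT libraries (log2 fold change 0.98). Gbp4 stood at 7.06, 14.4 and 16.4 CPM in the KO libraries, against 7.82, 7.68 and 4.86 CPM in the WT libraries, so the groups overlapped (0.89). Gm4951, an IRG gene, averaged 3.53 ± 1.61 CPM in KO and 1.44 ± 0.48 CPM in WT (SD, n = 3 each; 1.29). Members of these families are close copies of each other, and the sources used here do not give how the authors' counting split shared tags.

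Upstream of the GTPases, 8 activators of the pathway were tested and 0 passed over all genes, with a median fold change of 0.67. Irf8, a factor of myeloid cells and an interferon-gamma target, stood at 160, 279 and 208 CPM in the KO libraries, against 77.9, 129 and 56.2 CPM in the WT libraries (1.30). Irf1, which binds the ISRE, stood at 113, 182 and 154 CPM in the KO libraries, against 91.5, 101 and 60.7 CPM in the WT libraries (0.83). Neither overlapped between groups. Of the 8 tested, 3 had every KO library above every WT library, against 12.1% of all genes. Irf9, the DNA-binding partner of Stat2, averaged 149 ± 37.6 CPM in KO and 89.8 ± 20.2 CPM in WT (0.73), with overlap. Ciita, the master factor of MHC class II genes, had 0 counts in the 3 KO libraries, against 15, 20 and 25 counts in the WT libraries. Those counts are multiples of 5 and may stand for 3, 4 and 5 tags, so no fold change is given. With Ciita set to a bound from 3 counts per KO library the list median was the same to 2 decimals.

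Among 7 genes listed as brakes on interferon signalling 0 passed, with a median of 0.43. In 3 of the 7 every KO library lay above every WT library, against 12.1% of all genes. Usp18, which restrains interferon receptor signalling, stood at 13.9, 25.5 and 18.8 CPM in the KO libraries, against 7.14, 9.93 and 7.03 CPM in the WT libraries (1.27). Its adjusted p was 0.0105 with DESeq2, and edgeR also called it when KO replicate 1 was left out (fold change 1.46). Socs3, a feedback inhibitor of cytokine signalling, averaged 26.6 ± 1.99 CPM in KO and 15.6 ± 4.66 CPM in WT (0.77). Irf2, which competes with Irf1, averaged 13.8 ± 1.94 CPM in KO and 10.3 ± 1.25 CPM in WT (0.43). Ptpn2, a phosphatase of Jak1, was the single gene of this list with every KO value below every WT value, at 15.5, 14.0 and 13.6 CPM in the KO libraries and 18.0, 20.9 and 17.5 CPM in the WT libraries (-0.39).

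Of 22 other interferon-gamma targets, 18 were tested, 0 passed, and the median was 0.76. The 4 with the smallest p belong to antigen processing for MHC class I. Tap2, a chain of the peptide transporter, stood at 275, 507 and 382 CPM in the KO libraries, against 116, 140 and 102 CPM in the WT libraries (1.70, edgeR adjusted p = 0.146). Tap1, its partner, averaged 164 ± 41.2 CPM in KO and 60.0 ± 17.2 CPM in WT (1.45). The immunoproteasome subunits Psmb8 and Psmb10 averaged 49.9 ± 7.71 and 30.7 ± 8.35 CPM in KO, against 23.4 ± 6.32 and 15.5 ± 2.55 CPM in WT (1.09 and 0.98). In all 4 genes, chosen by smallest p, every KO library lay above every WT library. Of the 18 tested, 7 had this separation, against 12.1% of all genes, and 11 overlapped between groups. MHC class II genes, named after their values were seen, overlapped between the groups, with fold changes of 0.04 for Cd74, 0.24 for H2-Aa, 0.34 for H2-Ab1 and 0.23 for H2-Eb1. The chemokine gene Cxcl10, likewise, stood at 0.471, 1.20 and 0.713 CPM in the KO libraries, against 0.652, 1.10 and 0.888 CPM in the WT libraries.

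Genes that lead to interferon-gamma secretion were tested in 6 of 11 cases, with 0 past the threshold and a median of 1.42. Il15ra, which presents interleukin-15 to natural killer cells, stood at 419, 601 and 446 CPM in the KO libraries, against 176, 120 and 92.4 CPM in the WT libraries (1.92, edgeR adjusted p = 0.146). Il15 averaged 14.2 ± 2.04 CPM in KO and 6.21 ± 0.87 CPM in WT (1.19). Il12rb1, a chain of the interleukin-12 receptor, averaged 5.83 ± 0.72 CPM in KO and 1.36 ± 0.30 CPM in WT (2.10). Tbx21, the factor T-bet that drives Ifng transcription, averaged 6.33 ± 1.68 CPM in KO and 2.02 ± 0.62 CPM in WT (1.64). None of these 4, chosen by smallest p, overlapped between groups. Of the 6 tested, 4 had every KO library above every WT library, against 12.1% of all genes.

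Type I interferons induce many of the same genes. Of 9 of their ligand and signalling genes 5 were tested, 0 passed, and the median was 0.69. Ifne, the epsilon interferon of the reproductive tract, was read at 10.2, 11.5 and 10.7 CPM in the KO libraries, against 4.20, 6.40 and 3.14 CPM in the WT libraries (1.24). The kinase gene Tyk2 averaged 58.1 ± 1.51 CPM in KO and 35.9 ± 3.42 CPM in WT (0.69), and Stat2 averaged 7.26 ± 1.40 CPM in KO and 4.34 ± 0.52 CPM in WT (0.74). None of these 3 overlapped between groups, whereas the receptor chain Ifnar1 did, at 20.4 ± 3.65 CPM in KO and 15.8 ± 2.10 CPM in WT (0.36). These tested genes were chosen by smallest p. The ligand gene Ifnk, named after its values were seen, was too low to test and went the other way. It had 0, 0 and 2 counts in KO replicates 1, 2 and 3, against 10, 20 and 32 in WT replicates 1, 2 and 3. Of the 5 tested, 3 had every KO library above every WT library, against 12.1% of all genes. Among 12 tested partners of the GTPases in vacuole defence 0 passed, with a median of 0.18. In 4 of the 12 every KO library lay above every WT library, against 12.1% of all genes. Aim2, a sensor of cytosolic DNA, averaged 11.4 ± 1.93 CPM in KO and 4.36 ± 1.25 CPM in WT (1.39), and Casp4, the sensor of bacterial lipopolysaccharide, 3.41 ± 0.92 CPM in KO and 0.97 ± 0.12 CPM in WT (1.81). Atg7, of the conjugation system of autophagy, averaged 19.2 ± 3.50 CPM in KO and 11.3 ± 0.82 CPM in WT (0.76), and the vacuole-damage lectin Lgals8 195 ± 40.7 CPM in KO and 117 ± 31.4 CPM in WT (0.73). Of the 12, 4 had negative fold changes, and Atg5, of the same conjugation system, named after its values were seen, had every KO value below every WT value, at 23.0, 18.6 and 19.3 CPM in the KO libraries, against 26.8, 34.2 and 24.0 CPM in the WT libraries (-0.48).

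**Figure D3:**
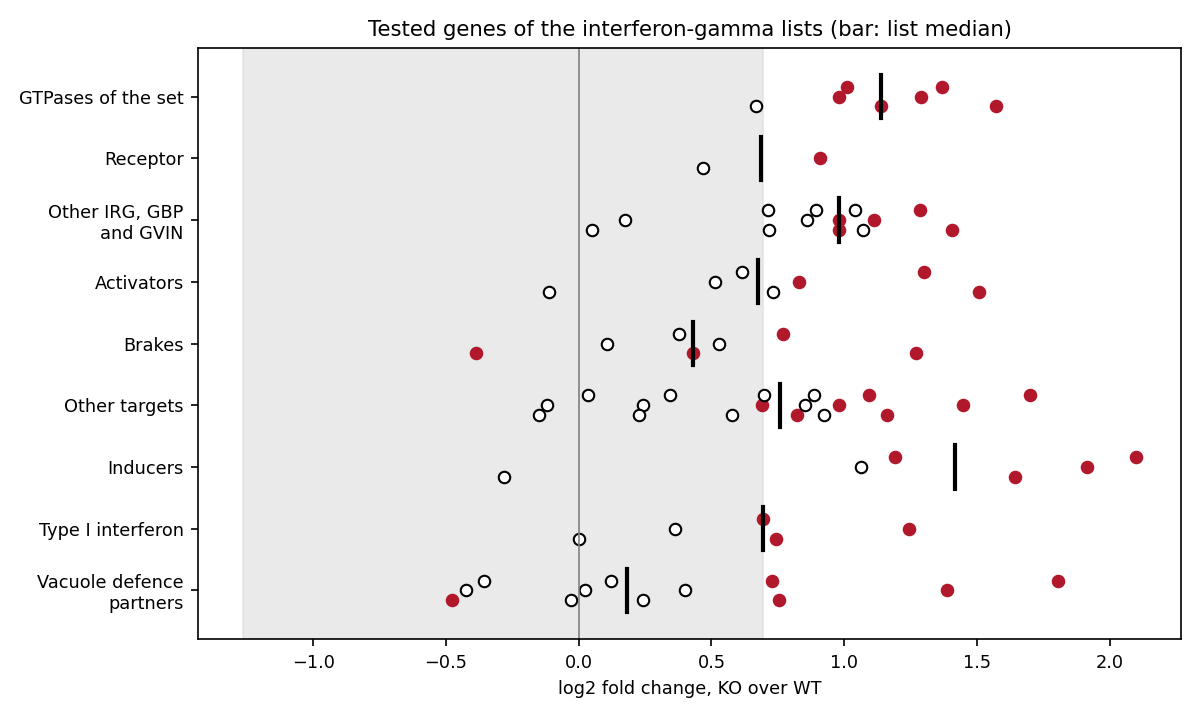
Log2 fold change, KO over WT, of every tested gene in the interferon-gamma lists except Ciita, which has no KO count. Red points are genes whose groups do not overlap, open points genes whose groups do, vertical bars list medians, and the grey band the 10th to 90th percentile of all genes tested. Outside the 10 genes there are 68 distinct sets of counts (Gvin1 and Gm4070 taken once), of which 58 lie above 0, against 46.6% of all genes, and 28 have every KO library above every WT library, against 12.1% of all genes.

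The genes with the pattern most like the mean of the 7 standardised GTPases were sought among 9536 genes averaging at least 5 CPM. The 5 with the highest Pearson r over the 6 libraries were Grrp1 (0.9989), Adam12 (0.9986), H2-T10 (0.9974), Rassf5 (0.9972) and Esr1 (0.9969). Adam12, a membrane metalloproteinase, stood at 59.7, 102 and 100.4 CPM in the KO libraries, against 35.8, 37.4 and 31.5 CPM in the WT libraries. Esr1, the oestrogen receptor alpha, stood at 166, 303 and 325 CPM in the KO libraries, against 95.5, 105 and 76.3 CPM in the WT libraries. The likeness to the GTPases chose these genes, so their group difference is no separate result. H2-T10 belongs to the MHC class I family, whose close copies may share tags.

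The libraries also differed in markers of several tissues. Total counts were 14476809 to 23887717 in KO and 18352150 to 36213611 in WT libraries. Adgrl2 stood at 5.49, 1.67 and 2.78 CPM in KO libraries, against 10.9, 7.56 and 15.96 CPM in WT libraries (log2 fold change -1.78, edgeR adjusted p = 0.194). Tags from its 3' end may lie outside the deleted part, so they do not check the labels. Of 15 heart and neural tube markers 14 were detected, and their summed level was 7.53 to 20.6 CPM in KO and 51.6 to 350 CPM in WT libraries. Nkx2-5 was too low to test, with 0 counts in all KO libraries and 7, 0 and 20 counts in WT replicates 1, 2 and 3. The 9 erythroid markers summed to 825 to 1451 CPM in KO and 3722 to 6479 CPM in WT libraries, with a median fold change of -2.57. In that sum Hba-a1 weighs most, at 698, 1234 and 768 CPM in KO replicates 1, 2 and 3. The decidual gene Prl8a2 alone stood at 1279 to 5335 CPM in KO and 14989 to 28746 CPM in WT libraries, so libraries labelled whole embryo held maternal transcripts in abundance. Prl8a2 does not stand for its list, in which 8 of 10 decidual markers had positive fold changes (list median 1.05). In such bulk libraries a change in the number of cells and a change in RNA per cell cannot be told apart.

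Natural killer, endothelial and most decidual markers had positive fold changes, as the GTPases did. Of 16 lymphocyte markers 15 were detected, and their summed level was 727 to 1220 CPM in KO and 239 to 526 CPM in WT libraries, with a median fold change of 1.25 over 12 tested genes. Gzmb, a granule protease of natural killer cells, stood at 85.7, 161 and 121 CPM in the KO libraries, against 36.7, 60.3 and 29.9 CPM in the WT libraries. Of the 12 lymphocyte markers tested, 10 had every KO library above every WT library, against 12.1% of all genes. T cell genes were near 0, with Cd8a at 0 in every library and Cd3e at no more than 0.333 CPM. All 10 macrophage markers were detected, at a summed 339 to 361 CPM in KO and 264 to 605 CPM in WT libraries, a sum in which Csf1r weighs most. The groups overlapped for 8 of the 10, and the median fold change was 0.47, with 8 positive. Csf1r, the receptor for a macrophage growth factor, was lower in every KO library (58.3 to 156 CPM in KO and 166 to 442 CPM in WT libraries), and Ptprc, which all leukocytes carry, was higher in every KO library (48.6 to 65.2 CPM in KO and 15.1 to 27.5 CPM in WT libraries). The 10 endothelial markers summed to 3197 to 3933 CPM in KO and 1904 to 3035 CPM in WT libraries. All 10 had a positive fold change (median 0.80). In 7 of them every KO library lay above every WT library, against 12.1% of all genes. Of the 10 decidual markers, 8 had a positive fold change, and Prl8a2 and Erv3 had negative ones (list median 1.05). Every KO library lay above every WT library in 6 of the 10, against 12.1% of all genes. It lay below in 2, and the share of all genes in that direction is not given. The part of these tissues in the values of the GTPases was not tested.

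Trophoblast, yolk sac and erythroid markers set KO replicates 2 and 3 apart from KO replicate 1. The difference was not confined to these lists. Over all tested genes, Pearson r of log2 CPM of KO replicate 1 was 0.909 and 0.913 with KO replicates 2 and 3. With WT replicates 1, 2 and 3 it was 0.956, 0.942 and 0.897. The trophoblast median lay at 0.56, -5.19 and -4.46 from the WT mean (log2) in KO replicates 1, 2 and 3, and the yolk sac median at -0.87, -6.07 and -5.69. In the same order the erythroid median lay at -1.27, -4.70 and -5.06, and the heart and neural tube median at -2.14, -4.03 and -3.34. With KO replicate 1 alone against WT, the median fold change of the 7 GTPases was 0.70, and without that library 1.34. Without it, Iigp1, Gbp3 and Gbp7 passed (3 of 9, against 1.77% of all genes called higher in that fit).

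**Figure D4:**
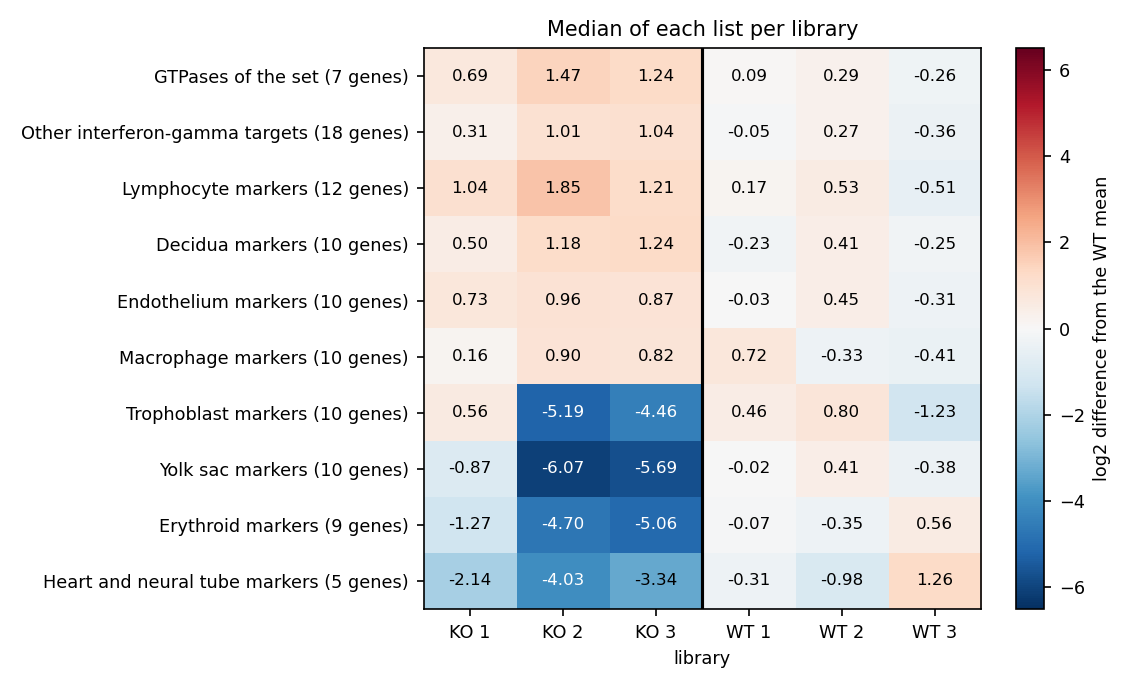
Median log2 difference from the WT mean over the tested genes of each list, by library, KO left of WT. The GTPases stand at 0.69, 1.47 and 1.24 in KO libraries and the lymphocyte markers at 1.04, 1.85 and 1.21. Decidua markers stand there at 0.50, 1.18 and 1.24, and endothelium markers at 0.73, 0.96 and 0.87. Trophoblast, yolk sac, erythroid, and heart and neural tube markers are lowest in KO replicates 2 and 3.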

How the data were processed

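RNA of 6 libraries was extracted with Trizol and 500 ng went into the QuantSeq kit, per the labels' protocols. The authors deposited raw counts, 1 table of gene symbols per library, without normalization. Bowtie2, edgeR and the build mm10 are named in the submitters' processing notes. The sources used here do not give their roles, the annotation, the strand setting or the treatment of shared reads. Of 11680 genes with at least 10 counts in every library, 19.9% had 6 counts with a common divisor above 1.

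Groups follow the titles. Counts were filtered with filterByExpr of edgeR 4.0.16 (13848 genes kept) and scaled by TMM. KO was compared with WT by the quasi-likelihood test without covariates, adjusted over all genes. DESeq2 1.42.0 and limma 3.58.1 (voom) were alternatives. SE is the fold change over the root of the test statistic. The labels do not say that replicates are separate animals, so the p-values reflect spread that may be technical. No pair of libraries agreed within sampling noise (lowest chi-square per degree of freedom 23.02). Named genes are the 10 members, up to 4 per pathway list by smallest p, the 5 most alike, and others as stated. The members and lists were chosen with earlier results of these data known, and 1 listed gene is not reported here. Positions are from GENCODE M21 and promoters from RefSeq (GRCm38.p6).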

Additional observations from a re-analysis of the deposited data

How the results depend on the processing

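The 9 tested genes kept a positive fold change under all 16 alternatives and with KO replicate 1 alone, a setting chosen after seeing the data. With 5 CPM required in 3 libraries, 8 of the 9 were tested. The number of the 10 genes past the threshold was 0 with edgeR and 5 with DESeq2, and 0 to 3 when 1 replicate was left out, where the 3 came without KO replicate 1. The number of genes of the other pathway lists past it was 0 with edgeR, 15 with DESeq2 and 0 to 6 when 1 replicate was left out. Over all genes, 0 were higher and 7 lower, against 470 and 387 with DESeq2, and 0 to 252 and 0 to 466 when 1 replicate was left out. The 7 lower became 0 with 1 symbol kept per identical set, and without WT replicate 2 they were 11. The cause of these moves was not tested. The median fold change of the GTPases was 1.14, ran from 0.97 to 1.34 when 1 replicate was left out, and was 0.70 with KO replicate 1 alone. Other scalings gave medians of 1.12 to 1.16. Between KO and WT libraries of the same replicate number, r of deviations was 0.13, -0.02 and 0.07 for numbers 1, 2 and 3. For unlike numbers it ran from -0.11 to 0.07. With 3 libraries a group, such values cannot decide whether replicate numbers pair the samples. With a replicate block 0 genes were lower, and Iigp1 had a fold change of 1.34 (edgeR adjusted p = 0.210). Depth limits what can be said of Ifng, with no count, and of Irgm1. For Ifng the overlapping gene on the same strand is a further limit.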
